A study of Homo sapiens with 29 samples.

Results

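The average effect of doxorubicin was taken over all 29 tumour libraries of the series, of which 14 came from mice given doxorubicin and 15 from mice not given it. It is the mean of 4 differences in gene expression, each between a group with doxorubicin and the group of the same cell line and the same decitabine setting without it. These are doxorubicin against vehicle in parental tumours, doxorubicin with decitabine against decitabine in parental tumours, and the same differences in resistant tumours. No measured value entered the choice of the libraries, so the tests below use the whole table. Below, treated and untreated mean with and without doxorubicin, whatever the decitabine setting.

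Doxorubicin is an anthracycline. It slips between the bases of DNA, traps topoisomerase II on cut DNA and so leaves double-strand breaks, and its quinone can also cycle between redox states and release reactive oxygen. Cells with intact p53 answer such breaks by raising p53 targets, while cells without working p53, among them MDA-MB-231, lean on the ATR and ATM checkpoints and often halt late in the cell cycle or leave it in a senescent state that secretes inflammatory factors and proteases.

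MDA-MB-231 is a human triple-negative breast cancer line. The parental line and one paclitaxel-resistant derivative of it were grown as orthotopic xenografts in SCID-beige mice, a strain without working T and B lymphocytes and with impaired NK cells. For the parental line 250000 cells were injected and treatment began on day 6, against 1500000 cells and day 16 for the resistant line, so that line, inoculum and start day cannot be told apart. Treatment ran for 26 days as 2 cycles of 12 days with 2 days of rest between them, with doxorubicin at 1 mg/kg on days 5 and 12 of a cycle and decitabine, an inhibitor of DNA methyltransferases, at 0.4 mg/kg on days 1 to 4 and 10 to 11. The parental groups held 4 vehicle, 3 doxorubicin, 4 decitabine and 4 combination libraries, and the resistant groups held 4 vehicle, 4 doxorubicin, 3 decitabine and 3 combination libraries. Each animal received bilateral injections and may have given more than 1 library, and the p-values measure the spread between libraries, which may in part be technical. In these bulk tumours fewer cells of a type and less RNA per cell cannot be told apart.

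The libraries were polyA 3′ tag libraries, with a total of 3398261 to 5382295 counts each (median 4600007). Total counts were higher in treated libraries (median 4827108) than in untreated ones (median 4445548), and the mean of the 4 differences was 324918 counts (exact two-sided permutation test within pairs, p = 0.030). The share of counts from genes in the lowest quintile of transcript GC was 19.4% in untreated and 18.5% in treated libraries on average, and the mean of the 4 differences was -0.962 percentage points (the same exact permutation test, p = 0.000888). The share from mitochondrially encoded genes differed by -0.0629 percentage points (exact permutation p = 0.82). Parental vehicle replicate 3 and resistant decitabine replicate 2, both without doxorubicin, stood apart on the second principal component. Without them 290 genes were called, 193 of which were among the 320 called with them.

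Of 13495 genes tested with edgeR's quasi-likelihood test, 320 (2.37%) passed an adjusted p of 0.05, 112 of them higher with doxorubicin (0.83%) and 208 lower (1.54%). Most changes were small. The median log2 change was 0.41 among the higher genes and -0.35 among the lower genes, against 0.01 over all genes tested, and 16 genes changed by a log2 of at least 1. Of these 10 rose, KCNU1, MMP1, IL1RL1, IFITM10, SIK1, MMP10, LOXL4, AGR2 and 2 clone-named genes, and 6 fell, ASPN (-2.18, at means of 1.28 and 0.239 CPM), HOXC10, GVINP1, FBN2, MORF4L1P1 and 1 clone-named gene. Most of them had means under 5 CPM in both arms, and those not described below were named after their values were seen. SIK1, at means of 1.22 and 1.98 CPM, did not differ in 1 direction. Its pair differences were -0.05 in parental and -0.64 in resistant tumours, and 3.86 and 1.54 in those with decitabine. The calls depended on the parental tumours given decitabine: in the mean of the other 3 pairs, taken from the same fit, 0 genes were called by edgeR (1146 at an unadjusted p under 0.05, against 2508 with all 4 pairs, 18.6%). The named genes were called on an average that holds these pairs, and the largest also had to have 1 sign in all 4 pairs. Their signs and sizes in the mean of the other 3 pairs are therefore a description and not a test. Of 56 called genes named by rule below, all 56 kept their sign in that mean and 12 were at least as large, with a median of 74.1% of the change with all 4 pairs (42.8% to 123%) and a lowest adjusted p of 0.161. MMP1 had 1.50 there against 1.34, POU3F2 -0.80 against -0.65, and CLSPN -0.29 against -0.61. In the mean without the parental pair lacking decitabine 112 genes were called. The count also moved with single libraries, from 63 without resistant decitabine replicate 3 and 64 without resistant combination replicate 1 to 728 without resistant combination replicate 2.

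Among the lower genes the regulator of the replication checkpoint CLSPN (claspin, chromosome 1, 35720218 to 35769967, minus strand), which holds CHK1 at stalled forks, had 41.6 to 274 CPM (counts scaled to a common library size, median 90.1) in untreated libraries and 41.9 to 102 CPM (median 60.1) in treated ones. In parental tumours its mean was 188 ± 59.4 CPM (SD, n = 4) with decitabine and 63.0 ± 14.8 CPM (n = 4) with both agents. Those groups did not overlap, whereas the treated and untreated libraries of the other 3 pairs did. CLSPN fell by 0.61 on the log2 scale (SE 0.13, adjusted p = 0.0165), with pair differences of -0.24 in parental, -1.58 in parental with decitabine, -0.12 in resistant and -0.51 in resistant tumours with decitabine.

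BRCA2 (chromosome 13, 32315474 to 32400266, plus strand) acts in homologous recombination. It ranged from 27.6 to 103 CPM (median 52.6) in untreated and from 24.0 to 53.2 CPM (median 30.3) in treated libraries. The groups did not overlap in either parental pair: 47.0 ± 11.0 CPM with vehicle (n = 4) stood against 31.0 ± 5.16 with doxorubicin (n = 3), and 78.0 ± 20.5 with decitabine (n = 4) against 30.4 ± 5.71 with both (n = 4). In resistant tumours the groups overlapped, at 35.2 ± 6.01 (n = 4) and 31.4 ± 6.60 CPM (n = 4) without decitabine. BRCA2 fell by 0.64 on average (SE 0.12, adjusted p = 0.012) and was called in all 29 fits that left out 1 library, and in the mean of the 3 pairs other than the parental decitabine pair it differed by -0.40 (adjusted p = 0.51).

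ANLN (anillin, chromosome 7, 36389806 to 36453791, plus strand) scaffolds the contractile ring that divides the cell. Its level was 28.2 to 103 CPM (median 51.8) in untreated and 24.6 to 45.4 CPM (median 32.3) in treated libraries. The 3 parental doxorubicin libraries lay at 25 to 26.9 CPM, below all 4 parental vehicle libraries at 28.2 to 79.1, and both decitabine pairs were also free of overlap. ANLN fell by 0.70 (SE 0.13, adjusted p = 0.012), by 1.03 and 1.26 in the parental pairs and by 0.21 and 0.31 in the resistant ones.

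**Figure D1:**
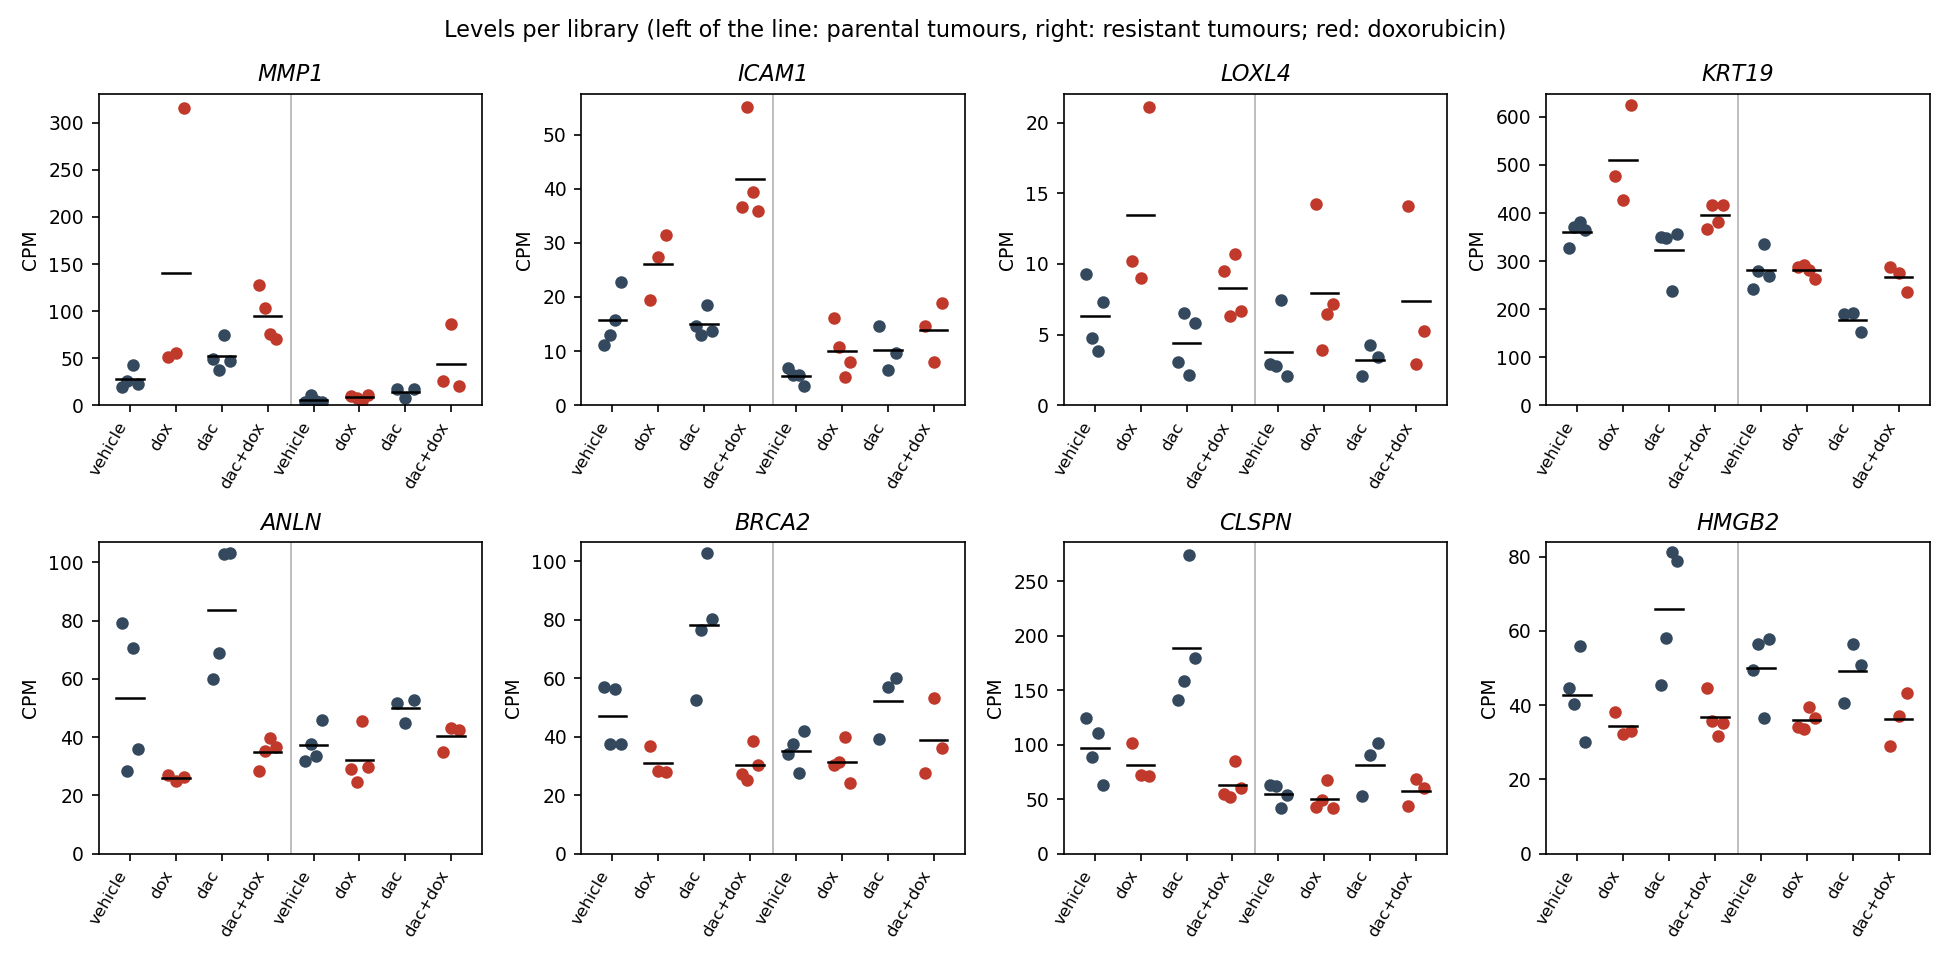
Level of 8 genes in each library, in CPM on a linear axis from 0; a point is a library, a bar the mean of its group, red points are libraries with doxorubicin and dark points libraries without. Parental groups are left of the grey line and resistant groups right of it; the widest gaps for BRCA2, CLSPN and HMGB2 are between the parental decitabine group and the parental combination group.

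HMGB2 (chromosome 4, 173331695 to 173335125, minus strand), a chromatin protein that is lost from the nuclei of senescent cells, was lower in every pair, and only the parental decitabine pair was free of overlap. Untreated libraries held 30.1 to 81.3 CPM (median 50.9) and treated ones 29 to 44.7 CPM (median 35.5), and it fell by 0.51 (SE 0.10, adjusted p = 0.0126). The pair differences were -0.31, -0.84, -0.48 and -0.43 in the order used above. KNL1, the kinetochore scaffold that recruits BUB1, fell by 0.68 (SE 0.14, adjusted p = 0.0163), from a median of 29.1 CPM (15.1 to 55.2) to a median of 16.7 CPM (13.8 to 29.7). Both were called in all 29 fits without 1 library.

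The other genes with the largest decreases belong in part to the same steps of the cell cycle. PRIM1, the catalytic subunit of primase, fell by 0.95 (SE 0.26, adjusted p = 0.045), ESCO2, which acetylates cohesin in S phase, by 0.79, CCNE2, a cyclin of the G1 to S step, by 0.66, and ZNF367 by 0.62. FAM111B fell by 0.78 and GLMN, which blocks an SCF ubiquitin ligase, by 0.63. FBN2, a fibrillin of elastic microfibrils, fell by 1.07 (SE 0.29, adjusted p = 0.0485), from a median of 6.43 CPM (1.46 to 16.6) to one of 2.68 CPM (1.00 to 6.77). Its call was kept in 10 of the 29 fits without 1 library, and that of PRIM1 also in 10 (highest adjusted p of each, 0.104 and 0.103, both without resistant combination replicate 1). POU3F2, a POU-domain transcription factor, had its smallest difference in the parental decitabine pair: it fell by 0.65 (SE 0.14, adjusted p = 0.0163), with pair differences of -1.07, -0.20, -0.94 and -0.40.

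The genes with the smallest p-values were mostly well-counted genes with modest changes. SMC2, a core ATPase of condensin, fell by 0.40 (SE 0.06, adjusted p = 0.00388), from a mean of 257 to 195 CPM, and PKN2, a protein kinase, fell by 0.43 at the same adjusted p, from 78.4 to 55.0 CPM. Next came TRIM14 (-0.49), ICAM1 (0.88), the chromatin protein DEK (-0.31), BRCA2, the splicing factor HNRNPR (-0.43), TNNT1 (0.35), ANLN and the deubiquitinase USP1 (-0.42), all at an adjusted p of 0.012. USP1 removes ubiquitin from FANCD2 and PCNA in the repair of cross-links and the bypass of lesions. TNNT1 and ICAM1 were the only higher genes among these 10.

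Interstitial collagenase MMP1 (chromosome 11, 102789920 to 102798160, minus strand) had the largest increase of the genes chosen by size, which had to differ in the same direction in all 4 pairs. It ranged from 3.84 to 74.9 CPM (median 19.0) in untreated and from 4.25 to 316 CPM (median 53.2) in treated libraries. The spread was wide: parental tumours given doxorubicin held 51.0, 55.3 and 316 CPM, the last in replicate 3, against 19.0 to 43.2 with vehicle. Resistant tumours had 4.25 to 11.2 CPM with doxorubicin against 3.84 to 11.1 with vehicle. The parental pair without decitabine and the resistant pair with it did not overlap, and the other pairs did. MMP1 rose by 1.34 (SE 0.30, adjusted p = 0.0246), and its adjusted p was 0.0537 without resistant decitabine replicate 3.

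Stromelysin MMP10, a neighbour of MMP1 in the protease cluster of that chromosome, rose by 1.12 (SE 0.24, adjusted p = 0.0182), from a median of 2.26 CPM (1.27 to 6.08) to one of 4.69 (1.31 to 32.8). The 32.8 CPM was parental doxorubicin replicate 3, against 8.27 and 9.66 in the rest of its group. Limma voom did not call MMP10 (adjusted p = 0.0622). LOXL4, an enzyme that cross-links collagen and elastin, rose by 1.07 (SE 0.25, adjusted p = 0.0261), from a median of 3.86 CPM (2.03 to 9.27) to one of 8.08 (2.90 to 21.1). Its 4 pair differences lay close together, at 1.07, 0.93, 1.06 and 1.23, while libraries of the groups overlapped in every pair, and its adjusted p was 0.086 without resistant combination replicate 1. AGR2, a disulfide isomerase of secretory cells, rose by 1.04 (SE 0.26, adjusted p = 0.039); it lay at 0.565 to 1.44 CPM in resistant tumours with decitabine and at 1.93 to 7.14 with both agents, and its call was kept in 13 of the 29 fits without 1 library.

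ICAM1 (chromosome 19, 10270835 to 10286615, plus strand), the receptor that leukocyte integrins bind, ranged from 3.62 to 22.8 CPM (median 13) in untreated and from 5.14 to 55.0 CPM (median 19.2) in treated libraries. With decitabine, parental tumours had 13 to 18.5 CPM and the combination libraries 35.8 to 55.0, without overlap. The other pairs overlapped, each with a higher treated mean. ICAM1 rose by 0.88 (SE 0.16, adjusted p = 0.012), with pair differences of 0.73, 1.48, 0.89 and 0.43, and was called in all 29 fits without 1 library.

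Of the further genes with the largest increases, SPACA9 rose by 0.79, CYTH4, an exchange factor for ARF GTPases, by 0.72, DEPP1, a FOXO target, by 0.72, TMEM225B by 0.69, FAM83A by 0.65 and the clock gene PER1 by 0.59. FAM83A kept its call in 12 of the 29 fits without 1 library. Parental doxorubicin replicate 3 held FAM83A at 173 CPM against 52.9 and 59.7 in the rest of its group. Without that library its adjusted p was 0.0741. DEPP1 and PER1 each kept their call in 8 of the 29 fits. DEPP1 had an adjusted p of 0.111 without resistant combination replicate 1, and PER1 one of 0.113 without resistant combination replicate 3. PSG4 rose by 0.58 but belongs to a family of near-identical genes among which reads can be split, so its identity is uncertain.

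**Figure D2:**
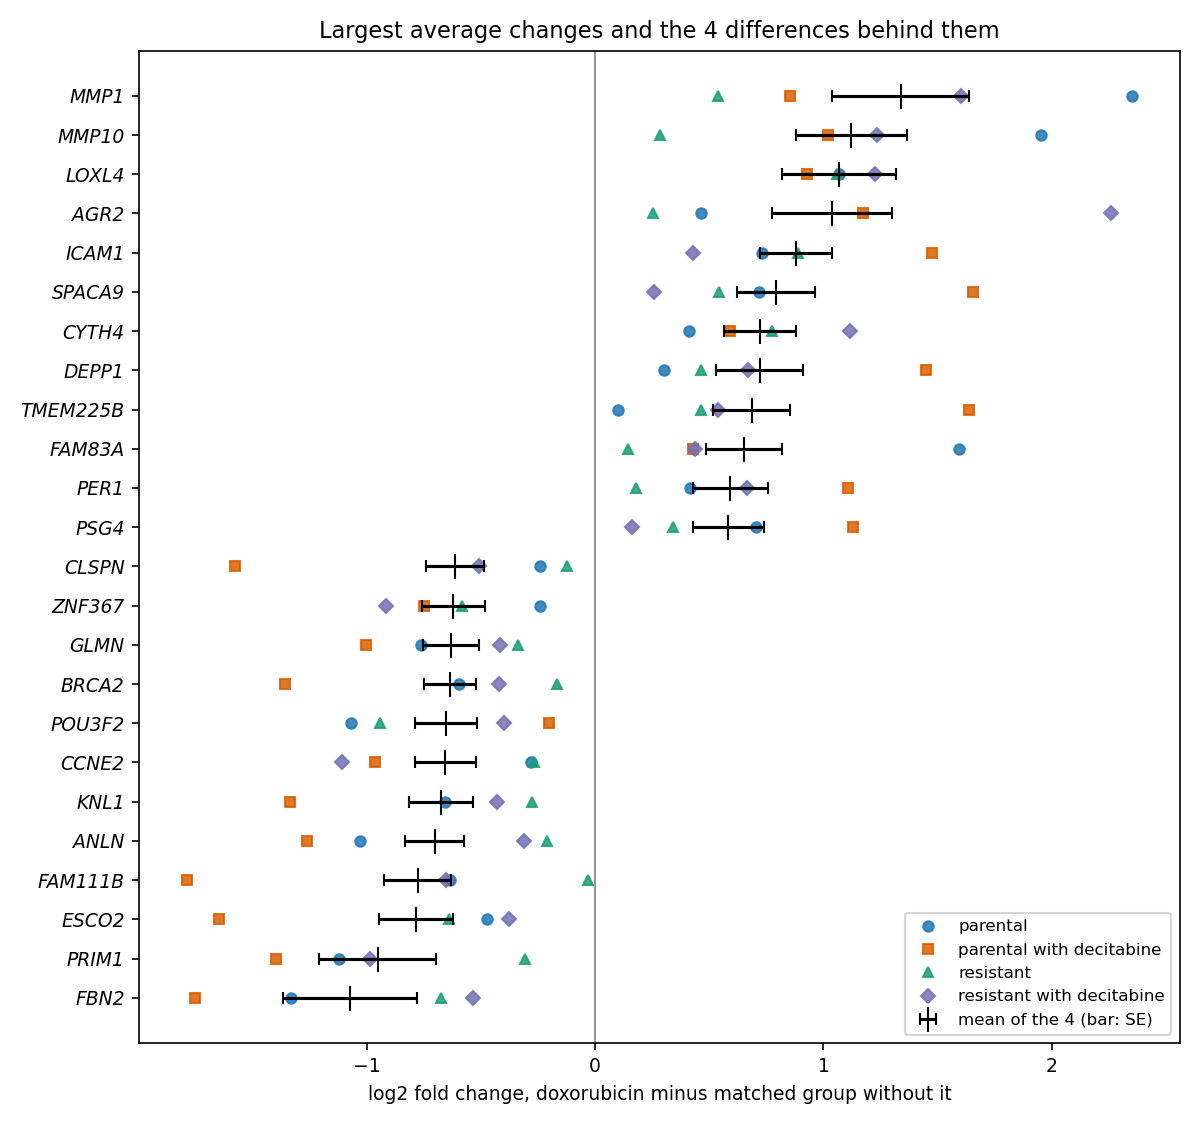
Log2 change of the 24 genes with the largest average change among called genes above the level minimum, with the mean of the 4 differences (black, bar ± SE) and each difference as a coloured symbol. The choice of genes required all 4 symbols to lie on the same side of 0, and the parental decitabine pair (orange squares) is the outermost for most of the lower genes.

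TOP2A, the topoisomerase II of dividing cells, had 671 to 1461 CPM (median 993) in untreated and 660 to 1076 CPM (median 799) in treated libraries, with a log2 change of -0.26 (SE 0.08, adjusted p = 0.07). Its groups overlapped in 3 pairs and were apart in the parental pair with decitabine, at 1226 ± 167 (n = 4) and 758 ± 133 CPM (n = 4). TOP2B, the isoform also present in resting cells, differed by -0.19 (adjusted p = 0.0935). Of 9 tested of 10 listed topoisomerases and enzymes that repair trapped topoisomerase, 1 fell: TOP1, which relaxes DNA through single-strand nicks, fell by 0.32 (SE 0.07, adjusted p = 0.0165), from a median of 307 CPM (186 to 495) to one of 238 CPM (202 to 278). The pair differences of TOP1 were -0.42 in parental, -0.73 in parental with decitabine, -0.09 in resistant and -0.02 in resistant tumours with decitabine. The median of the topoisomerase list was -0.15, and 1.54% of all genes tested were called lower.

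Of 30 listed p53 targets, 28 were tested and none passed, where 2.37% of all genes tested did. At that share a list of this size can be without a call, so the lack is not read as a result. Their median log2 difference was 0.02, against 0.01 over all genes, with 16 above 0 and 12 below. CDKN1A, the p21 inhibitor of cyclin-dependent kinases, had 40.6 to 93.3 CPM (median 72.9) in untreated and 59.7 to 145 CPM (median 71.5) in treated libraries, and differed by 0.14 (SE 0.10, adjusted p = 0.456). The pair differences were 0.73 in parental, -0.15 in parental with decitabine, -0.0061 in resistant and 0.00081 in resistant tumours with decitabine; parental doxorubicin replicate 3 had 145 CPM against 67.7 and 64.3 in the other 2 libraries, and without it the average difference was 0.026. MDM2, which tags p53 for degradation, differed by -0.14 (adjusted p = 0.315) and the stress cytokine GDF15 by 0.29 (adjusted p = 0.254). No member of the apoptosis regulators (26 tested, median 0.03) passed either, with the same limit.

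DNA break signalling and repair leaned lower. Of 28 tested genes 4 fell and none rose, against 1.54% of all genes tested that were called lower; 25 of the 28 lay below 0, with a median of -0.18. Beside BRCA2 these were RIF1, which protects break ends from resection (-0.35, SE 0.07, adjusted p = 0.0148), PRKDC, the kinase of end joining (-0.40, SE 0.09, adjusted p = 0.0214), and XRCC2, also of homologous recombination (-0.53, SE 0.14, adjusted p = 0.0402). RIF1 was called in all 29 fits without 1 library and XRCC2 in 15. In the order used above, the pair differences of RIF1 were -0.53, -0.73, -0.0039 and -0.14. Those of PRKDC were -0.48, -0.90, -0.09 and -0.15, and those of XRCC2 -0.32, -1.45, 0.06 and -0.42. The median of the list was -0.39 in the parental pair with decitabine and between -0.14 and -0.07 in the other pairs.

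Of 30 tested mitosis genes 5 fell, against 1.54% of all genes tested that were called lower. The list median was -0.22, and 29 members lay below 0, against 6460 of 13495 genes tested. CDK1, the kinase that drives entry into mitosis, fell by 0.34 (SE 0.08, adjusted p = 0.0243), from a median of 149 CPM (84.0 to 209) to one of 109 CPM (86.2 to 151). The kinetochore proteins CENPF, CENPE and NUF2 and the checkpoint kinase BUB1 fell too, CENPF by 0.47, CENPE by 0.54 and BUB1 by 0.59. The members did not move alike in the 4 pairs: the list median was 0.15 in parental tumours, -0.70 in parental tumours with decitabine, -0.10 in resistant tumours and -0.25 in resistant tumours with decitabine. CDK1 itself differed by 0.0035 in parental tumours without decitabine and by -0.86 with it. Of 30 tested DNA replication genes 2 fell, PRIM1 and POLA1 (-0.59, SE 0.13, adjusted p = 0.0192), the catalytic subunit of the polymerase that extends primase's primers; the list medians were 0.11, -0.60, -0.11 and -0.20. Of 17 tested histone genes with polyadenylated transcripts, 1 fell, H2AFV by 0.22. Beside the 1.54% of all genes called lower, the few calls among replication and histone genes are not read as results about those lists.

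Inflammatory NF-kB targets lay on the higher side. Of 20 tested, 2 rose, against 0.83% of all genes tested that were called higher. They were ICAM1 and SOD2, the manganese superoxide dismutase of mitochondria (0.51, SE 0.14, adjusted p = 0.0433). In the list 19 lay above 0, against 7035 of 13495 genes tested, and the list median was 0.36. SOD2 had 11.3 to 59.8 CPM (median 27.5) in untreated and 21.4 to 82.7 CPM (median 40.1) in treated libraries. The groups overlapped in both resistant pairs and not in the parental ones, and its call was kept in 11 of the 29 fits without 1 library. Antigen presentation genes had a median of 0.30 with 19 of 20 above 0 and none called; HLA-B differed by 0.35 (adjusted p = 0.0717) and B2M by 0.13 (adjusted p = 0.27). Of 37 tested interferon-stimulated genes, none rose and 1 fell, the RNA sensor DDX58 (-0.29, SE 0.07, adjusted p = 0.0269); the medians were -0.18 in parental and 0.50 in resistant tumours without decitabine. Of 19 tested cell cycle inhibitors and senescence genes MMP1 rose and HMGB2 fell. Over all genes tested 0.83% were called higher and 1.54% lower. Single calls among interferon-stimulated or senescence genes are therefore not read as results about those lists.

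Hypoxia and glycolysis genes had the most calls on the higher side of any list. Of 33 tested, 5 rose and none fell (0.83% of all genes were called higher), 32 lay above 0 and the median was 0.28. ANGPTL4, a secreted inhibitor of lipoprotein lipase, had 98.6 to 612 CPM (median 453) in untreated and 173 to 1270 CPM (median 498) in treated libraries and rose by 0.54 (SE 0.13, adjusted p = 0.0271). LOX, which cross-links collagen and is also in the mesenchymal list, rose by 0.75 (SE 0.20, adjusted p = 0.0485), from a median of 65.9 CPM (17 to 120) to one of 98.6 CPM (45.8 to 278). The carbonic anhydrase CA12 rose by 0.58, the enolase ENO2 by 0.43, and GPI, the isomerase of the upper glycolytic pathway, was the fifth. The resistant pair without decitabine differed from the others in sign, with a list median of -0.08 against 0.24, 0.78 and 0.33. LOX kept its call in 8 of 29 fits without 1 library, CA12 and ENO2 in 12 each, and ANGPTL4 in 26. Parental doxorubicin replicate 3 held LOX at 278 CPM against 102 and 120 in the rest of its group. Without that library the adjusted p of LOX was 0.103.

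**Figure D3:**
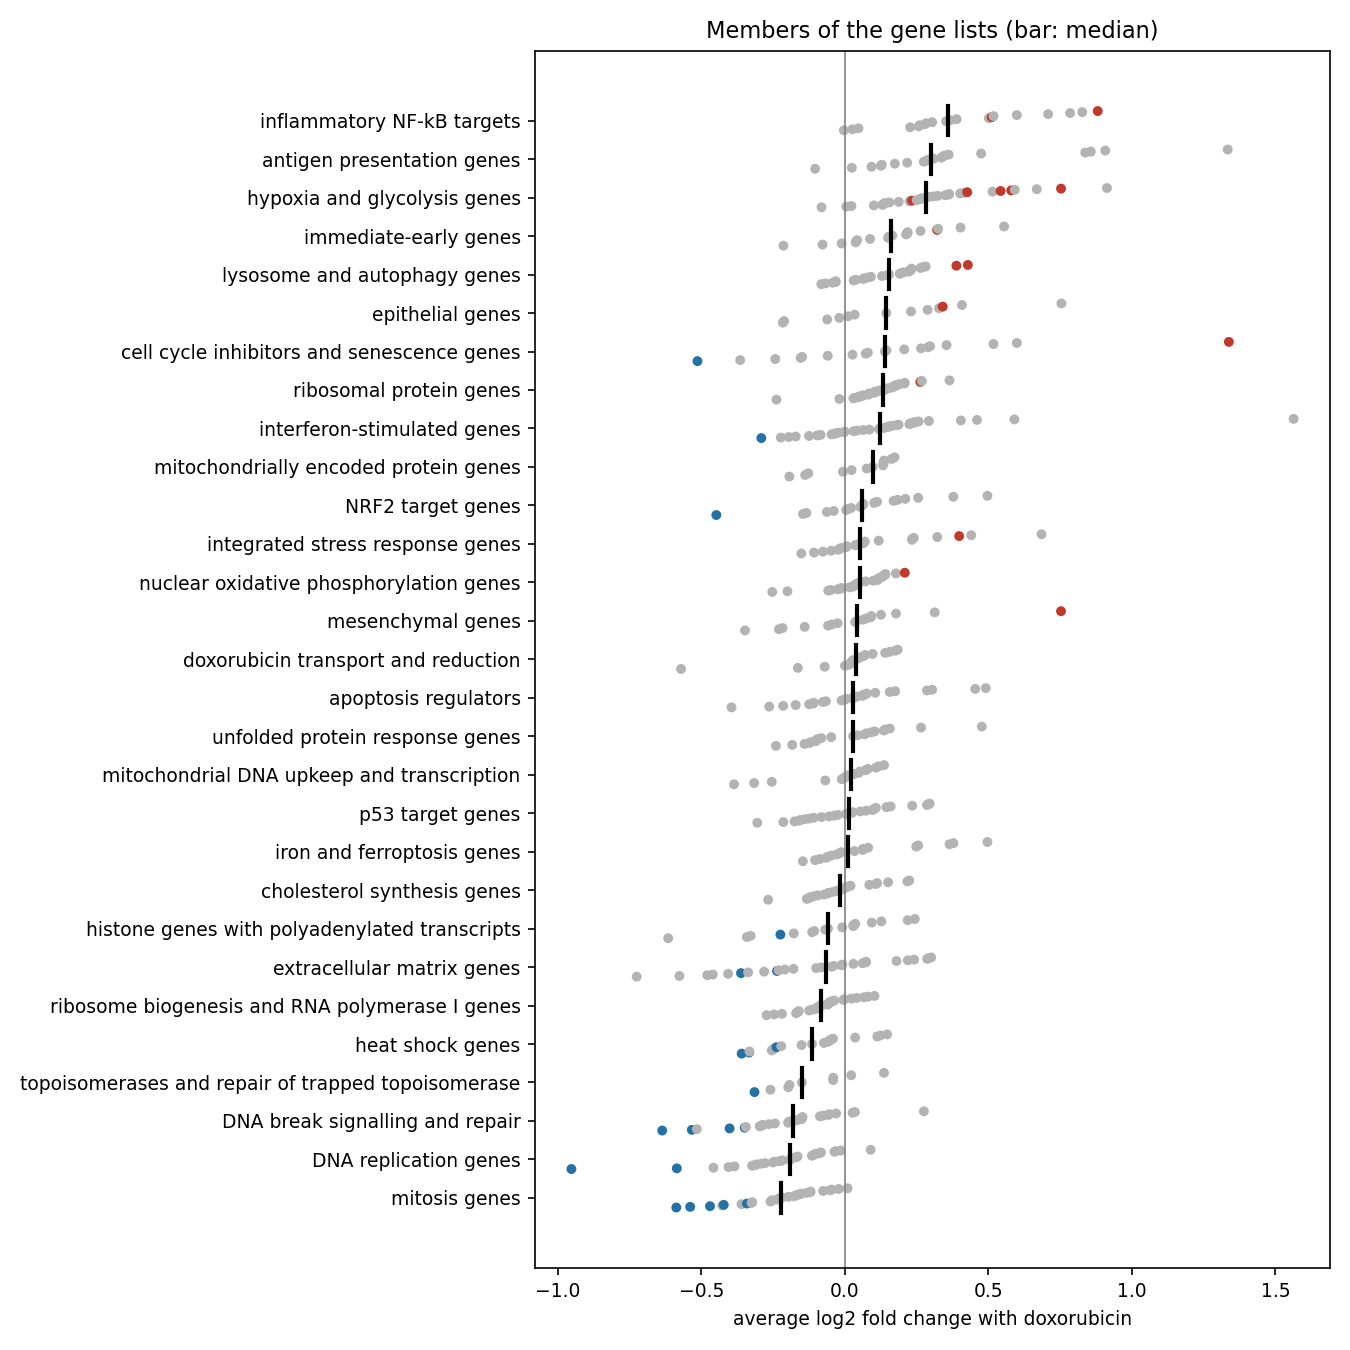
Average log2 change of every tested member of 29 gene lists, ordered by the list median (black bar); grey points did not pass the test, red points were called higher and blue points lower. NF-kB targets, antigen presentation and hypoxia genes have the highest medians (0.36, 0.30 and 0.28), and mitosis and DNA replication genes the lowest (-0.22 and -0.19).

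Of 19 tested heat shock genes 3 fell and none rose, against 1.54% of all genes called lower, with a median of -0.11: the mitochondrial chaperone HSPD1 (-0.33), HSPA4 (-0.24) and HSPH1 (-0.36). HSPH1 had an adjusted p of 0.0958 without resistant combination replicate 1. Of 20 tested NRF2 targets 1 fell, TXNRD1, the cytosolic thioredoxin reductase, by 0.45 (SE 0.11, adjusted p = 0.0299). TRIB3, the pseudokinase induced by ATF4, rose by 0.40 (SE 0.11, adjusted p = 0.0482) as 1 of 22 integrated stress response genes. KLF6 rose by 0.32 as 1 of 18 immediate-early genes. The autophagy kinase ULK1 (0.39, adjusted p = 0.0282) and the lysosomal calcium channel MCOLN1 (0.43, adjusted p = 0.0449) rose among 27 lysosome and autophagy genes. UQCRC1, a core subunit of respiratory complex III, rose by 0.21 among 30 nuclear oxidative phosphorylation genes, and RPLP2 by 0.26 among 32 ribosomal protein genes. Over all genes tested 0.83% were called higher and 1.54% lower. Lists with 1 or 2 calls are therefore not read as results about the list. No unfolded protein response, iron and ferroptosis, cholesterol synthesis, ribosome biogenesis, mitochondrially encoded, mitochondrial DNA upkeep or doxorubicin transport gene was called. As 2.37% of all genes tested were called, lists without a call are not read as results either.

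The tissue lists were checked for the cells a xenograft can hold. The epithelial keratin KRT19 (chromosome 17, 41523617 to 41528308, minus strand) rose by 0.34 (SE 0.07, adjusted p = 0.0135), from a median of 326 CPM (153 to 382) to one of 329 CPM (235 to 625). Within pairs the groups did not overlap except in resistant tumours without decitabine, where the log2 difference was -0.0063. Of 28 tested extracellular matrix genes FBN1 (-0.36) and THBS1 (-0.24) fell, against 1.54% of all genes tested that were called lower. None of the 6 tested of 12 fibroblast markers passed, and all 6 lay below 0, with a median of -0.53: COL1A1 differed by -0.58 (SE 0.30, adjusted p = 0.309) and COL3A1 by -0.73 (SE 0.39, adjusted p = 0.321). The summed level of that list was 658 to 2101 CPM (median 909) in untreated and 218 to 2110 CPM (median 621) in treated libraries. Of 8 tested of 12 endothelial markers ESAM (0.24) and PECAM1 (0.45) rose, against 0.83% of all genes tested that were called higher. The median of the 8 was 0.06, with 6 above 0 and 2 below. The pair medians were 0.32, -0.03, -0.01 and 0.20 in the order used above. ESAM kept its call in 13 of the 29 fits without 1 library, and PECAM1 in 5. The adjusted p of PECAM1 was 0.106 without resistant decitabine replicate 3. With the GC correction described below ESAM and PECAM1 were not called (adjusted p = 0.101 and 0.0742). The summed level of the endothelial list was 172 to 284 CPM in untreated and 207 to 348 CPM in treated libraries. ESAM alone held 81.1 to 132 and 90.3 to 161 CPM of it. None of 7 myeloid markers passed (summed 73.0 to 231 and 83.2 to 185 CPM), and S100A8 and S100A9 had no count. The lymphocyte markers CD3E, CD2 and MS4A1 had no count either, but other members of that list of 11 did. Its summed level was 3.25 to 42.3 CPM in untreated and 3.95 to 33.4 CPM in treated libraries. Its 2 tested members, IL7R (0.21, adjusted p = 0.451) and CD8A (-0.16, adjusted p = 0.741), were not called. The part of these cells in the changes was not tested, and reads of mouse cells that align to human genes are not marked in the table.

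The effect was next compared between the lines without shared libraries. In parental tumours alone 746 genes were called (5.53%), 220 higher (1.63%) and 526 lower (3.9%), and in resistant tumours alone 0 were called by edgeR and 0 by DESeq2 (653 at an unadjusted p under 0.05 by edgeR, 4.84%). Of the 220 genes called higher in parental tumours, 183 (83.2%) were also higher in resistant ones, against 49.2% of all genes, with a median of 0.51 in parental and 0.13 in resistant tumours. Of the 526 called lower, 405 (77%) were lower in resistant tumours, against 50.8% of all genes, with medians of -0.48 and -0.07. In both resistant pairs 103 of the 220 were higher and 258 of the 526 lower. By edgeR, 23 of the 220 (10.5%) were higher in resistant tumours at an unadjusted p under 0.05, against 2.65% of all genes. For the 526, 16 (3.04%) were lower at that threshold, against 2.19% of all genes. The test of the difference itself called 0 genes by edgeR (1119 at an unadjusted p under 0.05, 8.29%) and 66 by DESeq2. The difference between the effect with and without decitabine also called 0 genes, by edgeR (1058 at an unadjusted p under 0.05, 7.84%) and by DESeq2. Over the 208 genes called lower on average, the medians of the 4 pairs were -0.48, -0.66, -0.10 and -0.23, and over the 112 called higher they were 0.38, 0.68, 0.18 and 0.40. In all, 244 of the 320 genes had the same sign in all 4 pairs, which 20.7% of all genes tested also had; the average chose these genes and the count is a description.

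Called genes differed in build. Genes called lower had a median transcript GC of 40.1% and a median span of 69571 bases, and genes called higher 56.9% and 16561 bases, against 47.9% and 34675 bases over all genes tested. In the quintile with the lowest GC, 2 genes were called higher and 114 lower of 2329, and in the quintile with the highest GC 45 and 1. The median change ran from -0.09 in the lowest to 0.11 in the highest quintile in both parental pairs, and from -0.012 to 0.030 and from -0.011 to 0.0041 in the resistant pairs. Removing a smooth trend with GC from each library left 133 calls, 54 higher and 79 lower, against 371 for the same genes without that step. ICAM1 (0.84, adjusted p = 0.0168), HMGB2 (-0.54, adjusted p = 0.0168), ANLN (-0.65, adjusted p = 0.0173) and BRCA2 (-0.57, adjusted p = 0.0272) were still called, and CDK1 (-0.27, adjusted p = 0.0656) and ANGPTL4 (0.48, adjusted p = 0.0632) were not. Of the other hypoxia genes named by rule, LOX (0.81, adjusted p = 0.0486) was still called. CA12 (0.56, adjusted p = 0.0556) and ENO2 (0.39, adjusted p = 0.0649) were not. The part of the GC trend in the other changes was not tested.

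**Figure D4:**
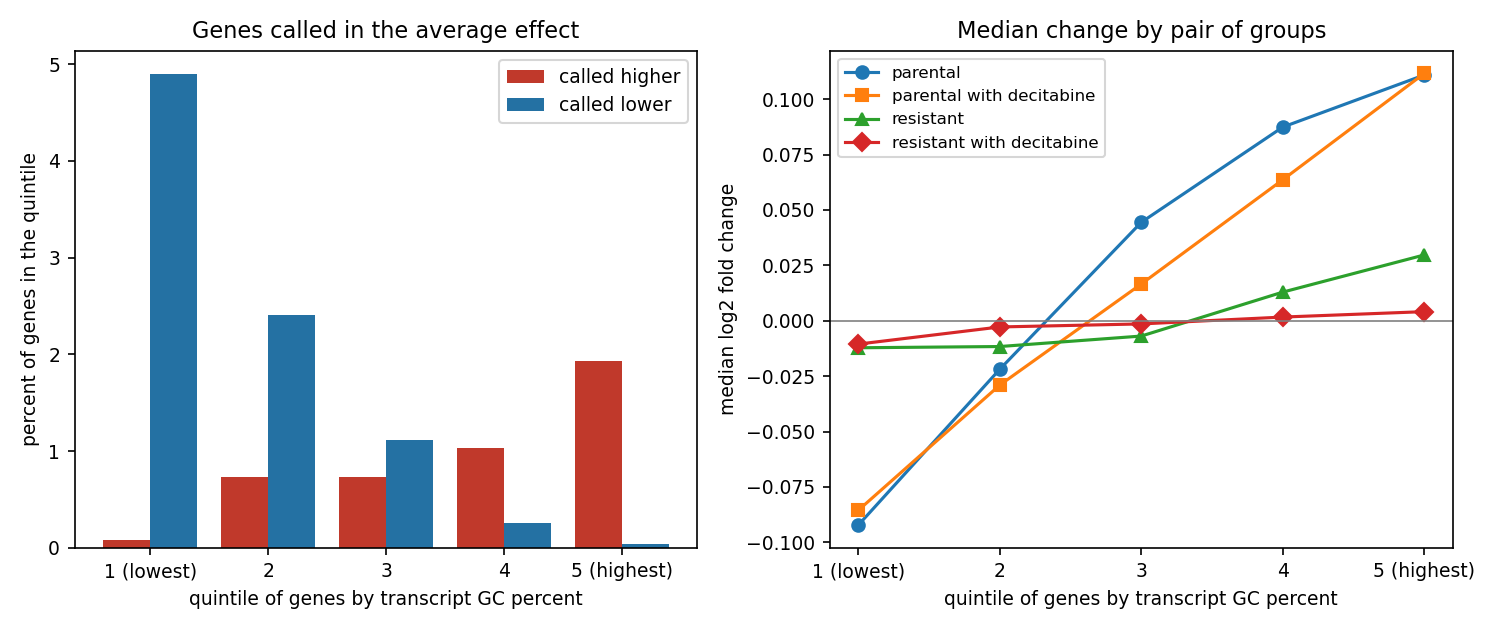
Genes split into quintiles by the GC percent of their longest transcript: left, percent of each quintile called higher (red) or lower (blue) in the average effect; right, median log2 change in each of the 4 pairs. Calls to the lower side fall from 4.89% in the lowest quintile to 0.043% in the highest, and both parental pairs rise across the quintiles from -0.09 to 0.11.

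Promoter sequence was set beside the calls because S-phase genes are known targets of E2F factors and ICAM1 of NF-kB. Windows come from the 250 bases before the transcription start in RefSeq (GRCh38.p14), which held a promoter for 248 of the 320 called genes and 10019 of the genes tested. The E2F letters TTTCCCGC or TTTGGCGC, on either strand, were in 8 of 169 promoters of lower genes (4.73%), in 3.21% of tested promoters and in 1.96% of all promoters in the table. The NF-kB letters GGAAATTCC, on either strand, were in 1 of 79 promoters of higher genes, in 0.409% of tested and in 0.428% of all promoters. CCAAT boxes were in 45.6% of lower, 25.3% of higher and 35.5% of tested promoters, and 33% of all. The letters TTTGAA of the cell cycle homology region were in 14.2% of lower and 8.48% of tested promoters, and 13.6% of all. The HIF core letters ACGTG, on either strand, were in 26.6% of higher, 27.2% of lower and 23.8% of tested promoters, and 18.7% of all. The following stretches show 1 match each in capitals with the gene's strand read 5′ to 3′; a match is letters in a sequence and not a bound site. The ICAM1 match is the only one among the higher genes, and the same NF-kB letters stand, on the other strand, before BRCA2, a gene that fell. The RefSeq start of ICAM1 (10271120) lies after the GENCODE start given above, and its stretch lies between these starts. Among the stretches shown, E2F letters stand before the genes ZNF367 and POLA1, which fell, and also before MDM2 and SSBP1, which were not called. No stretch is shown for the named genes CCNE2, ESCO2, PRKDC and FAM83A, whether or not their promoters hold a match. The stretches may therefore lack matches before named genes.
ICAM1, NF-kB letters, chr19:10270924-10270952, plus strand: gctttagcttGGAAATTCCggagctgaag
BRCA2, NF-kB letters, chr13:32315356-32315384, plus strand: tgcctgacaaGGAATTTCCtttcgccaca
ZNF367, E2F letters, chr9:96418374-96418401, minus strand: gaaatgtaacGCGGGAAAagccggggca
POLA1, E2F letters, chrX:24693771-24693798, plus strand: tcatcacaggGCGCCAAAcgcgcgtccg
MDM2, E2F letters, chr12:68807930-68807957, plus strand: gagtgtcacaGCGCCAAAccttgctggc
SSBP1, E2F letters, chr7:141738260-141738287, plus strand: aggggagccgTTTCCCGCagcgctagcc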

How the data were processed

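RNA of snap-frozen xenograft tumours was made into polyA 3′ tag libraries with a Lexogen QuantSeq FWD kit, per the labels' protocols. The authors deposited raw counts per gene. Per the submitters' processing notes the tools were cutadapt, STAR 2.7.3a and featureCounts, with DESeq2 also named, on GRCh38.p10; the strand setting, the annotation release and the handling of mouse reads are not given in the sources used here. Counts of such libraries do not scale with transcript length.

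Genes were kept with filterByExpr (minimum count 10, minimum total 15), scaled by TMM and tested in edgeR 4.0.16 (R 4.3.3) with robust quasi-likelihood fits of 8 group means and 21 residual degrees of freedom; p-values were adjusted by Benjamini and Hochberg over the 13495 genes at 0.05. A gene's CPM uses the TMM library size. Single library measures were tested by exact permutation of libraries within the 4 pairs (3430000 arrangements, two-sided). On simulated counts the script recovered 46.9% of changes of 0.4 and 83.7% of changes of 0.8 (log2) in 13212 genes of the average effect, with 6.57% false calls. The simulated libraries had no line or decitabine effect, were independent and had the same change in all 4 pairs. The rates therefore need not hold for this series, where the pairs differed. Alternatives used limma 3.58.1 and DESeq2 1.42.0. Symbols, coordinates and GC come from GENCODE 29 (GRCh38), which matched 58039 of 58302 gene IDs.

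The members and gene lists were chosen with earlier results of these data known. Genes named are 5 always given (TOP2A, TOP2B, CDKN1A, MDM2, GDF15), the 12 called genes of each direction with the largest change, a mean of 5 CPM or more in treated or untreated libraries and 1 sign in all 4 pairs, and up to 4 called members of each list (otherwise its 2 most counted). NUF2, GPI and the genes with the smallest p-values were named after their values were seen. Libraries of the same replicate number were not treated as paired: correlations of their deviations in 14 pairs ran from -0.235 to 0.427, with 8 over 0.1. No pair of libraries of a group was near-identical (lowest chi-square per degree of freedom 3.65).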

Additional observations from a re-analysis of the deposited data

Results flagged for a closer look

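A single library lay far from the other 3 of its group in 23 of the 330 groups of 4 libraries tested over 66 genes by Dixon's ratio at 95%; chance flags about 1 in 20 groups. All values are CPM. Resistant doxorubicin replicate 3 held CA12 at 78.5 against 122 to 131, KNL1 at 29.7 against 14.6 to 16.8, RIF1 at 177 against 136 to 142 and TOP2B at 183 against 151 to 155. Resistant vehicle replicate 3 held CCNE2 at 3.62 against 7.04 to 7.68, LOX at 120 against 64.1 to 69.4, LOXL4 at 7.46 against 2.03 to 2.91 and PECAM1 at 7.24 against 4.97 to 5.34. Parental decitabine replicate 3 held CDK1 at 209 against 154 to 162, ESCO2 at 18.3 against 12.5 to 13.2 and KRT19 at 237 against 349 to 356. Parental combination replicate 1 held COL1A1 at 270 against 498 to 528 and HSPD1 at 172 against 201 to 202. Resistant vehicle replicate 2 held COL1A1 at 1482 against 512 to 646, COL3A1 at 521 against 111 to 151 and MMP1 at 11.2 against 3.84 to 4.52. Resistant doxorubicin replicate 2 held GDF15 at 8.28 against 15.2 to 16.2. Parental decitabine replicate 4 held HSPH1 at 851 against 491 to 526. Parental vehicle replicate 1 held MCOLN1 at 4.87 against 5.40 to 5.47. Parental combination replicate 3 held MDM2 at 144 against 118 to 123 and PRIM1 at 5.85 against 5.00 to 5.11. Resistant doxorubicin replicate 4 held MMP10 at 3.79 against 1.31 to 1.60. Parental vehicle replicate 3 held SOD2 at 11.3 against 19.9 to 21.3.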

How the results depend on the processing

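The 320 genes called kept the direction of their average change in every alternative in which they were tested, but the number called moved. These alternatives reuse libraries that chose the genes, so the kept direction is a description. DESeq2's Wald test gave 611 (230 higher, 381 lower) and 66 for the line difference. Without a filter on low counts 774 genes were called (322 and 452), with 113 for the line difference, 154 for the decitabine difference and 68 in resistant tumours. With limma voom 230 genes were called, 223 of them among the 320, and 16 of the 56 named genes were not, among them MMP10, AGR2 (adjusted p = 0.0628), PER1 (0.0909) and PRIM1 (0.114). An additive design gave 160 (56 and 104). Offsets corrected for GC content, chosen after seeing the data, gave 133 (54 and 79), with 437 in parental tumours. The averages with 1 pair left out were also chosen after seeing the data: 0 genes higher and 0 lower without the parental decitabine pair, 112 (55 and 57) without the other parental pair, 323 without the resistant decitabine pair (65 higher) and 661 (252 and 409) without the other resistant pair. The cause was not tested. Leaving out each library in turn gave 63 to 728 genes, 17 to 288 higher and 41 to 440 lower, 0 to 48 for the line difference, 0 for the decitabine difference and in resistant tumours, and 374 to 998 in parental tumours, the 374 without parental doxorubicin replicate 3 and the 48 without parental decitabine replicate 1. Parental vehicle replicate 3 and resistant decitabine replicate 2 left out together gave 2 genes in resistant tumours. With the replicate number as a block 228 genes were called (80 and 148), 224 of them among the 320; the libraries share only a number. Of the 56 named genes called, 16 were called in all 29 fits without 1 library and 32 with GC correction.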

Other observations

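The families in this paragraph were chosen after their values were seen. Their counts are a description, beside 0.83% of all genes tested called higher and 1.54% called lower. All 6 SMC genes, which code for the ATPase cores of cohesin, condensin and the SMC5/6 complex, lay below 0, and 5 of them fell: SMC2 by 0.40, SMC4 by 0.39, SMC5 by 0.38, SMC6 by 0.33 and SMC3 by 0.27. SMC1A differed by -0.21 (edgeR's quasi-likelihood test, adjusted p = 0.0648). Of 13 other genes of cohesin and condensin 12 also lay below 0, with a median of -0.20 against -0.36 for the SMC genes, and 1 fell, the cohesin regulator PDS5B, by 0.27; NCAPG of condensin I differed by -0.35 and PDS5A by 0.06 without a call. Of 10 tested matrix metalloproteases MMP1 and MMP10 rose and the membrane-bound MMP16 fell by 0.48 on average, from a mean of 12.0 to 7.56 CPM. The pair differences of MMP16 were -1.32 in parental, -0.67 in parental with decitabine, 0.49 in resistant and -0.40 in resistant tumours with decitabine. The abundant MMP14 differed by 0.09, at 643 and 681 CPM. Of 5 tested lysyl oxidases LOX and LOXL4 rose, while LOXL3 differed by -0.72 (adjusted p = 0.124) and was lower in all 4 pairs.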
